A study of Mus musculus with 39 samples.

Results

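The 10 genes described here are transcripts that mark T lymphocytes and natural killer (NK) cells: Cd3d, Cd3e, Cd3g, Cd4, Cd8a, Lck, Nkg7, Gzma, Klrd1 and Prf1. They were found by matching the Ensembl identifiers in the count files to these symbols, and 10 of 10 were among the 37583 genes counted. The study sequenced RNA of cortical bone, taken from femurs of mice with high bone mass and their controls, and 39 libraries from 2 experiments were used. The first compared 8 libraries labelled Sik2/3 DKO, for loss of the salt-inducible kinases Sik2 and Sik3, with 8 libraries labelled WT for that experiment. The second compared 12 libraries of Col1a1-Pth1r H223R mice (C1HR) with 11 WT libraries of its own. C1HR mice express a constitutively active parathyroid hormone receptor from a type I collagen promoter, which is active in cells of the osteoblast lineage. The strain, age and sex of the mice and the way in which the Sik genes were deleted are not given in the sources used here. The design text says that the marrow was flushed out in the Sik2/3 experiment and not in the C1HR experiment, whereas the extraction protocol of all 39 libraries includes flushing.

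T cells carry a receptor whose signal is passed on by the CD3 subunits, made from Cd3d, Cd3e and Cd3g, and started by the kinase LCK. Cd8a encodes the coreceptor chain of cytotoxic T cells, and Cd4 that of helper T cells. In mice, CD4 is also made by some dendritic cells and macrophages, so its RNA in whole bone need not come from T cells. NK cells and cytotoxic T cells kill through granules that hold perforin (Prf1), granzyme A (Gzma) and the membrane protein NKG7, and NK cells carry the receptor chain CD94 (Klrd1). Both cell types live in bone marrow as a minority of its blood cells.

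The gene counts per library ranged from 20324595 to 24922490 in the Sik2/3 experiment and from 11444686 to 16370874 in the C1HR experiment. Levels are given as CPM, the counts of a gene divided by the size of the library in units of 1e+06 counts, after scaling of the library sizes by edgeR's TMM method. Sik2 was higher in the libraries labelled DKO (29.7 ± 6.60 CPM, SD, n = 8) than in those labelled WT (19.1 ± 3.20 CPM, SD, n = 8). This goes against the label (log2 fold change 0.64, SE 0.14, adjusted p = 0.00127, edgeR quasi-likelihood test). A neighbour read from the opposite strand, Ppp2r1b, shares exon bases with Sik2, and reads were counted without strand. Ppp2r1b was higher in the libraries labelled DKO too (log2 fold change 0.76, SE 0.08, adjusted p = 9.72e-06, edgeR). Whether reads of Ppp2r1b entered the Sik2 counts was not tested. Sik3 had 90.0 ± 15.02 and 104 ± 25.3 CPM in the libraries labelled DKO and labelled WT, with SD and n = 8 each (log2 fold change -0.21, adjusted p = 0.223, edgeR). Pth1r was higher in C1HR by 1.89 on the log2 scale. The 9 osteoblast and osteocyte genes had a median of 1.81 there, so the Pth1r value does not check the label. Gene counts do not show which exons the reads came from, so a deletion of part of Sik2 or Sik3 could not be checked. All directions in the Sik2/3 experiment are therefore given for the libraries labelled DKO and labelled WT. Bone was present in every group, with 9 of 9 osteoblast and osteocyte genes counted and summed levels of 53410 to 436800 CPM. The libraries labelled WT 5 and WT 6 stood apart from the other 6 of their group. Their 12 granulocyte genes summed to between 8170 and 16300 CPM, against 891 to 3026 CPM in the other 6 and 10050 to 25430 CPM in the libraries labelled DKO. C1HR 8 and C1HR 9 stood apart from the other 10 C1HR libraries, with 12 erythroid genes at 10500 to 13180 CPM against 483 to 2218 CPM. Many of the fold changes, ratios, list medians and likeness values that these libraries move are also given without them. Others, among them fold changes of single genes in the C1HR experiment, are given with all libraries only. The libraries that stand apart were picked by levels seen in these same data. A p-value or a separation of groups without WT 5 and WT 6 is therefore a description and not a test. The same holds without C1HR 8 and C1HR 9. In bulk RNA, fewer cells of a type and less RNA per cell cannot be told apart.

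The 3 CD3 genes lie within 40019 bases of mouse chromosome 9 (mm9). Cd3g (ENSMUSG00000002033, chr9:44777655-44788514, minus strand) and Cd3d (ENSMUSG00000032094, chr9:44789876-44795135, plus strand) are read away from each other, with 1361 bases between them. Cd3e (ENSMUSG00000032093, chr9:44806826-44817673, minus strand) begins on the far side of Cd3d, with 11690 bases between these genes. The 250 bases before the start of each gene are shown because the 3 neighbours did not move together in the C1HR experiment, and those of Nkg7, on another chromosome, because it fell with Cd3d there. The sequences are from RefSeq (GRCm38.p6, whose coordinates differ from mm9), read 5′ to 3′ on the strand of the gene. Capitals mark the letters TGTGGT (RUNX motif) and AGGAAG (ETS motif), each searched on both strands.
Cd3g, chr9:44980432-44980681, minus strand: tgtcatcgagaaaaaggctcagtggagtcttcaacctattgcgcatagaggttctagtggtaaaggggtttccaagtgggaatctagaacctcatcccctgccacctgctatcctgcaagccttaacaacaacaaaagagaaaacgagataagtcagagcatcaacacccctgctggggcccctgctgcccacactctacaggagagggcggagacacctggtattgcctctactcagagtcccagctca
Cd3d, chr9:44981536-44981785, plus strand: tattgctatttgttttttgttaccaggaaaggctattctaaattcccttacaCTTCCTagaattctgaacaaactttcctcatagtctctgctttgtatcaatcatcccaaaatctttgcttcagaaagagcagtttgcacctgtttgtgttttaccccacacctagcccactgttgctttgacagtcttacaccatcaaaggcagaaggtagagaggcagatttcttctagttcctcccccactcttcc
Cd3e, chr9:45009612-45009861, minus strand: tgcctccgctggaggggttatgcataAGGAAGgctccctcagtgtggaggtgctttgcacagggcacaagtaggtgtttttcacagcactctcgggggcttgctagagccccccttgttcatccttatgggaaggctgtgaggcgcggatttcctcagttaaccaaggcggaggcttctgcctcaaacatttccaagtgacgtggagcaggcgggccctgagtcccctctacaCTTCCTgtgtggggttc
Nkg7, chr7:43436888-43437137, plus strand: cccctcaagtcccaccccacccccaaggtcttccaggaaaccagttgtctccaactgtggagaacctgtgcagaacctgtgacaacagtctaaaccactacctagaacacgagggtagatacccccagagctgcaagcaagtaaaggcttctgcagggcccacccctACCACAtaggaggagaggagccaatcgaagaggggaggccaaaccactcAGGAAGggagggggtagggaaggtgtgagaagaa
AGGAAG was found in the windows of Cd3d, Cd3e and Nkg7 and not in that of Cd3g, and TGTGGT was found in that of Nkg7 alone among these 4. Over the 9 promoters that RefSeq lists for 8 of the 10 genes, with 2 for Lck, TGTGGT was in 4 and AGGAAG in 6. Of all 32851 promoters of this length, 14% held TGTGGT and 29.5% held AGGAAG. A match to these letters is a description of the window, and no binding was measured.

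Most of the T and NK cell genes were higher in the libraries labelled DKO than in those labelled WT, and Cd4 was the exception. By edgeR's quasi-likelihood test, 7 of 10 were called higher and 0 lower at an adjusted p under 0.05, where 24.1% of the 15479 genes tested were called higher and 30.9% lower. Cd3d, Cd3e, Cd3g, Cd8a, Gzma, Klrd1 and Prf1 had at most 10 counts in each library labelled WT other than WT 5 and WT 6. These genes passed the filter on low counts through the libraries labelled DKO, where they are high, which leans towards a call of higher. At an unadjusted p under 0.05, and with DESeq2 and limma voom, 0 members were lower as well. Scaling by total counts in place of TMM gave 5270 genes higher and 2697 lower, against 3726 and 4788. The median log2 fold change of the 10 was 1.95, beside -0.09 for all genes tested. In C1HR against its own WT, 4 of the 8 genes with enough counts were lower (Cd3d, Lck, Nkg7 and Prf1) and 1 was higher (Cd4), where 40.6% of 13976 genes were called lower and 43.7% higher. Scaling by total counts gave 4321 genes higher and 7698 lower there, against 6109 and 5678. Their median log2 fold change was -0.67, beside 0.05 for all genes tested. Cd8a and Gzma had too few counts for that test. With such shares of all genes called, the counts of members alone do not set these genes apart from the rest of the transcriptome.

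**Figure D1:**
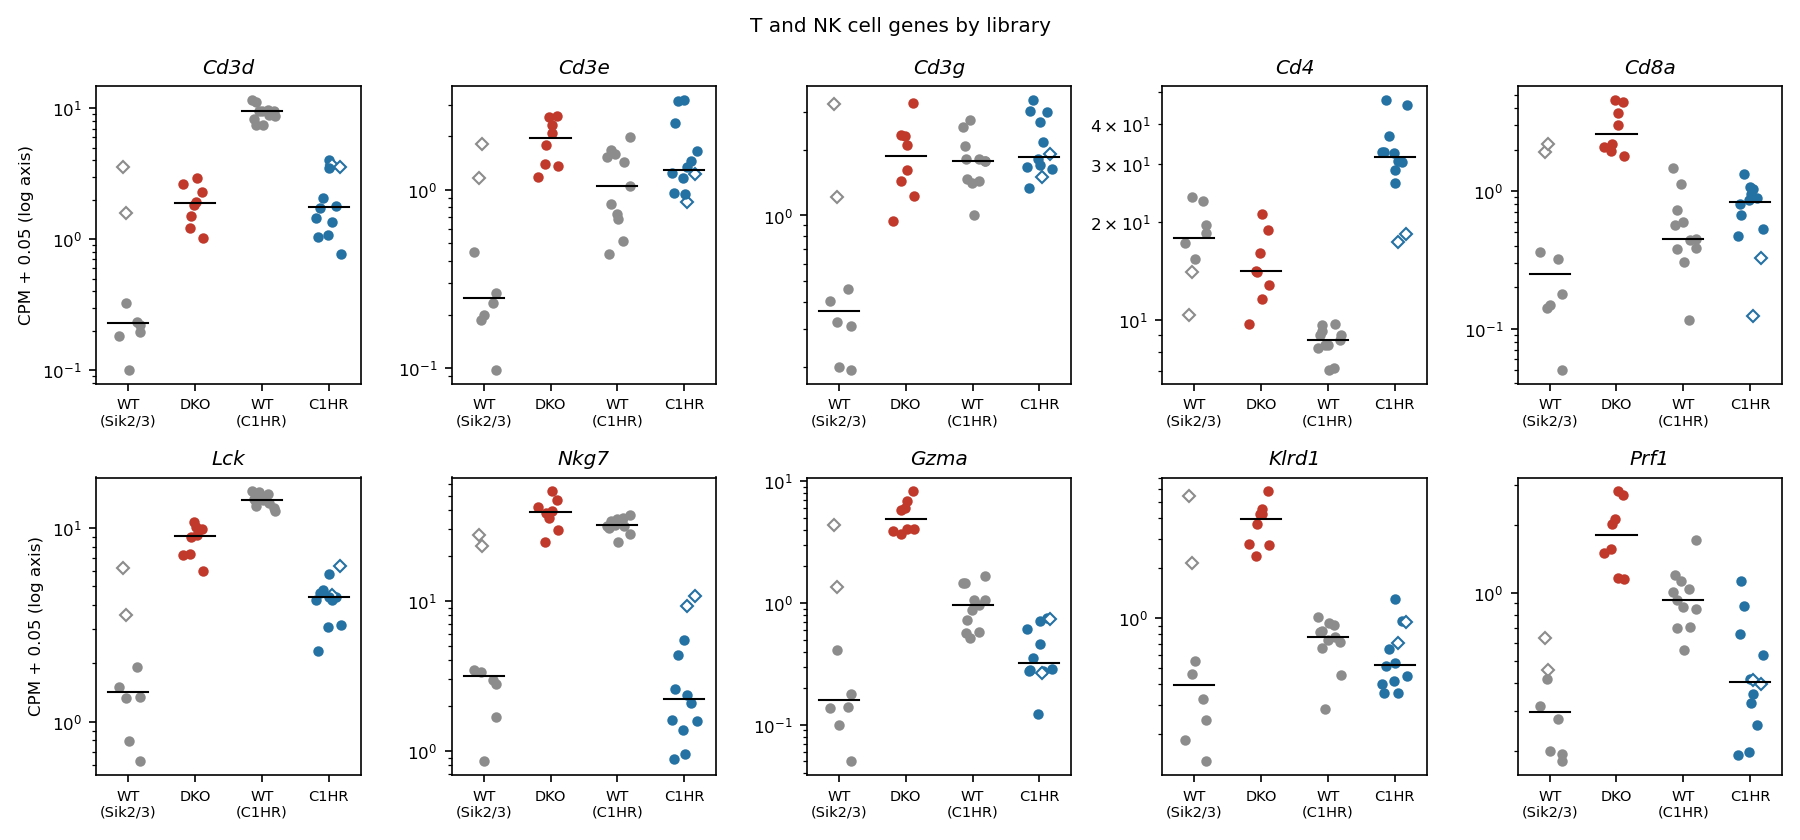
Level of each of the 10 genes in every library (CPM + 0.05, log axis), by group, with 1 point per library and lines at the group medians, where open diamonds mark the libraries labelled WT 5 and WT 6 and C1HR 8 and C1HR 9. For the genes other than Cd4 and Prf1, the libraries labelled WT reach those labelled DKO through WT 5, WT 6 or both, and Cd3d, Lck and Nkg7 are higher in every WT library of the C1HR experiment than in any C1HR library.

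Cd3e, the CD3 epsilon subunit, ranged from 1.13 to 2.54 CPM in the libraries labelled DKO (median 1.89) and from 0.0478 to 1.75 CPM in those labelled WT (median 0.199). The groups overlapped only through WT 6, and WT 5 lay just below the lowest library labelled DKO. The other 6 libraries labelled WT lay between 0.0478 and 0.398 CPM, which is 1 to 9 counts each. Cd3e was higher in the libraries labelled DKO by 1.88 on the log2 scale (SE 0.52, adjusted p = 0.00643, edgeR), and by 3.28 without WT 5 and WT 6. Cd3d, the delta subunit, ranged from 0.974 to 2.91 CPM (median 1.83) in the libraries labelled DKO, against 0.0498 to 3.50 CPM (median 0.177) in those labelled WT. The highest value of either group was that of WT 5. Its log2 fold change of 1.32 (SE 0.66) did not pass (adjusted p = 0.101, edgeR), and without WT 5 and WT 6 it was 3.53 (adjusted p = 4.37e-07). Cd3g, the gamma subunit, ranged from 0.891 to 3.26 CPM (median 1.82) in the libraries labelled DKO, against 0.143 to 3.23 CPM (median 0.314) in those labelled WT. Its log2 fold change of 1.31 (SE 0.56) did not pass (adjusted p = 0.057, edgeR), and was 2.81 (adjusted p = 3.51e-06) without those libraries. In the libraries labelled DKO the 3 subunits stood at mean levels of 1.42 ± 0.51, 1.30 ± 0.39 and 1.75 ± 0.71 CPM per kilobase of exon for Cd3d, Cd3e and Cd3g (SD, n = 8).

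In the C1HR experiment the CD3 subunits parted. Cd3d ranged from 0.719 to 3.96 CPM in C1HR (median 1.72) and from 7.36 to 11.7 CPM in WT (median 9.50). Every WT library was above every C1HR library, as for 24.9% of all genes tested, and Cd3d fell by 2.11 on the log2 scale in C1HR (SE 0.22, adjusted p = 1.84e-09, edgeR). Cd3e ranged from 0.799 to 3.15 CPM in C1HR (median 1.25) and from 0.385 to 1.94 CPM in WT (median 1.01). The groups overlapped, and the log2 fold change of 0.54 (SE 0.28) did not pass (adjusted p = 0.0776, edgeR). Cd3g ranged from 1.29 to 3.38 CPM in C1HR (median 1.82) and from 0.952 to 2.70 CPM in WT (median 1.74), with a log2 fold change of 0.26 (SE 0.18, adjusted p = 0.177, edgeR). With limma voom and quality weights, Cd3e (0.80, adjusted p = 0.0107) and Cd3g (0.39, adjusted p = 0.0318) passed as higher in C1HR.

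The inequality of the subunits was largest in the WT libraries of the C1HR experiment, though single libraries of other groups also showed it. Per kilobase of exon, Cd3d stood there at a mean of 6.99 CPM, against 0.754 for Cd3e and 1.65 for Cd3g. In C1HR the same means were 1.61, 1.10 and 1.97 CPM per kilobase. Within a library, where no scaling enters, the log2 ratio of Cd3d to Cd3e counts was 3.21 ± 0.78 in WT (SD, n = 11) and 0.36 ± 1.00 in C1HR (SD, n = 12). It ranged from 2.145 to 4.316 in WT and from -1.11 to 2.135 in C1HR, so these groups were barely apart. In the Sik2/3 experiment it ranged from -1.441 to 1.622 in the libraries labelled WT and from -0.481 to 1.178 in those labelled DKO. The difference of -2.85 (SE 0.37) between C1HR and its WT passed a two-sided permutation test (adjusted p = 6e-05 over 6 such ratios, chosen after the levels had been seen). The ratio of Cd3d to Cd3g differed by -2.54 (SE 0.27, adjusted p = 6e-05), and that of Cd3g to Cd3e by -0.31 (SE 0.24, adjusted p = 0.255). In the Sik2/3 experiment the ratio of Cd3d to Cd3e was -0.02 ± 0.57 in the libraries labelled DKO and 0.07 ± 1.11 in those labelled WT (SD, n = 8 each), and none of the 3 ratios passed the exact permutation test. No exon of Cd3d, Cd3e or Cd3g overlaps another gene in GENCODE vM1.

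Lck (ENSMUSG00000000409, chr4:129225588-129250885, minus strand, mm9), the kinase that starts T cell receptor signalling, moved in opposite directions in the 2 experiments. It ranged from 5.97 to 10.7 CPM in the libraries labelled DKO (median 9.04) and from 0.573 to 6.19 CPM in those labelled WT (median 1.38). WT 5, at 6.19 CPM, was the one library labelled WT that reached the range of the other group. The log2 fold change was 2.03 (SE 0.39, adjusted p = 0.000519, edgeR), and 2.86 without WT 5 and WT 6. Lck ranged from 2.27 to 6.31 CPM in C1HR (median 4.34) and from 12.2 to 15.4 CPM in WT (median 13.8). The groups did not overlap, and Lck fell by 1.69 on the log2 scale (SE 0.11, adjusted p = 5.31e-13, edgeR).

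Cd8a (ENSMUSG00000053977, chr6:71323421-71329165, plus strand, mm9), the chain of the cytotoxic T cell coreceptor, ranged from 1.74 to 4.58 CPM in the libraries labelled DKO (median 2.56). In those labelled WT it ranged from 0 to 2.16 CPM (median 0.201), where the 0 counts of WT 2 allow a level of up to 0.143 CPM. Its log2 fold change was 2.23 (SE 0.66, adjusted p = 0.00938, edgeR), and 4.24 without WT 5 and WT 6. In the C1HR experiment it was low in both groups, with 1 to 17 counts per library in C1HR (median 0.784 CPM) and 1 to 19 counts in WT (median 0.401 CPM). Across the 8 libraries labelled DKO, log2 CPM of Cd8a and Cd3e had a Pearson r of 0.937 (permutation p = 0.000992, adjusted p = 0.0119 over 12 relations). Spearman's rho was 0.905 (permutation p = 0.00456, adjusted p = 0.0274), and r was 0.967 without the 2 libraries farthest from the median of Cd3e (permutation p = 0.00556, adjusted p = 0.0667). In the 6 libraries labelled WT other than WT 5 and WT 6, r was 0.900 (exact permutation p = 0.025, adjusted p = 0.1), and in the WT group of the C1HR experiment it was 0.558 (n = 11, permutation p = 0.0743, adjusted p = 0.149). In the 10 C1HR libraries other than C1HR 8 and C1HR 9, r was 0.338 (permutation p = 0.348), and -0.364 when the 2 farthest were also left out. Of these 4 groups the libraries labelled DKO alone gave an r past the adjustment. With WT 5 and WT 6 included, r in the 8 libraries labelled WT was 0.980 and passed too (exact permutation p = 0.000546, adjusted p = 0.00595). Whether r differed between groups was not tested.

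Of the granule genes, Nkg7 (ENSMUSG00000004612, chr7:50692443-50693616, plus strand, mm9) had the highest level per length, with a mean of 44.3 CPM per kilobase of exon in the libraries labelled DKO. In CPM it ranged from 24.5 to 53.9 CPM in the libraries labelled DKO (median 39.2) and from 0.797 to 27.3 CPM in those labelled WT (median 3.10). The 6 libraries labelled WT other than WT 5 and WT 6 lay between 0.797 and 3.40 CPM. The log2 fold change was 2.25 (SE 0.61, adjusted p = 0.00544, edgeR), and 3.99 without WT 5 and WT 6. Nkg7 ranged from 0.833 to 10.7 CPM in C1HR (median 2.16) and from 24.6 to 37.2 CPM in WT (median 31.9). The groups did not overlap, and the fall of 3.16 on the log2 scale (SE 0.34, adjusted p = 8.43e-09, edgeR) was the largest among the members in that comparison. C1HR 8 and C1HR 9 gave the highest Nkg7 levels of their group.

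Prf1 (ENSMUSG00000037202, chr10:60760584-60767011, plus strand, mm9), which encodes perforin, was the one member whose levels in the libraries labelled DKO and labelled WT did not overlap with all libraries included. Over all genes, 5.96% were higher in this way. Prf1 ranged from 1.10 to 2.78 CPM in the libraries labelled DKO (median 1.75) and from 0.129 to 0.583 CPM in those labelled WT (median 0.246). These are 26 to 70 counts against 3 to 13 counts. The log2 fold change was 2.67 (SE 0.32, adjusted p = 1.96e-05, edgeR), and 3.10 without WT 5 and WT 6. In C1HR, Prf1 ranged from 0.141 to 1.08 CPM (median 0.355), and in WT from 0.507 to 1.67 CPM (median 0.877). Prf1 fell by 1.11 on the log2 scale there (SE 0.27, adjusted p = 0.000586, edgeR), with overlapping groups.

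Gzma (ENSMUSG00000023132, chr13:113884033-113891187, minus strand, mm9), which encodes granzyme A, ranged from 3.66 to 8.27 CPM in the libraries labelled DKO (median 4.88). In those labelled WT it ranged from 0 to 4.30 CPM (median 0.110), with WT 5 at the top and WT 2 at 0 counts. The log2 fold change was 2.73 (SE 0.77, adjusted p = 0.00675, edgeR), and 5.40 without WT 5 and WT 6. Gzma had 1 to 10 counts in C1HR (median 0.270 CPM) and 6 to 24 counts in WT (median 0.918 CPM). It did not pass the filter on low counts there, and in a fit with no filter it was lower in C1HR by -1.29 on the log2 scale (adjusted p = 0.000172, edgeR). Klrd1 (ENSMUSG00000030165, chr6:129541800-129548793, plus strand, mm9), the CD94 chain of NK cell receptors, ranged from 2.31 to 5.80 CPM in the libraries labelled DKO (median 3.92). In those labelled WT it ranged from 0.0860 to 5.38 CPM (median 0.342). Its log2 fold change of 1.72 (SE 0.67, adjusted p = 0.0378, edgeR) lost the call when any 1 of 11 of the 16 libraries was left out, with an adjusted p of up to 0.0678. Without WT 5 and WT 6 together it was 3.84 (adjusted p = 1.95e-07). In C1HR and its WT, Klrd1 had medians of 0.471 and 0.721 CPM with overlapping groups (log2 fold change -0.24, SE 0.24, adjusted p = 0.365, edgeR).

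Without WT 5 and WT 6, 9 of the 10 genes, all but Cd4, were higher in every library labelled DKO than in any of the 6 libraries left in the other group, where 17.7% of all genes tested were. For all of these genes but Prf1, the groups overlapped only through WT 5, WT 6 or both. Their separation thus follows from leaving those libraries out and is no further support. The granulocyte, erythroid and B cell genes moved with the T and NK cell genes other than Cd4. In the comparison of the libraries labelled DKO with those labelled WT, 11 of 12 granulocyte, 10 of 12 erythroid and 11 of 11 B lineage genes were called higher and 0 lower, with medians of 2.08, 2.64 and 2.27 on the log2 scale. All 12, 12 and 11 were called higher without WT 5 and WT 6, and the medians were 3.37, 5.04 and 3.64. In C1HR against its WT, 12 of 12 granulocyte, 12 of 12 erythroid and 11 of 11 B lineage genes were called lower, with medians of -3.58, -3.53 and -2.34, and of -4.80, -4.99 and -2.63 without C1HR 8 and C1HR 9. The summed B lineage level was 230 to 433 CPM in the libraries labelled DKO and 13.9 to 192 CPM in those labelled WT. It was 53.3 to 210 CPM in C1HR and 389 to 555 CPM in its WT group. The part of these cells in the levels of the T and NK cell genes was not tested.

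**Figure D2:**
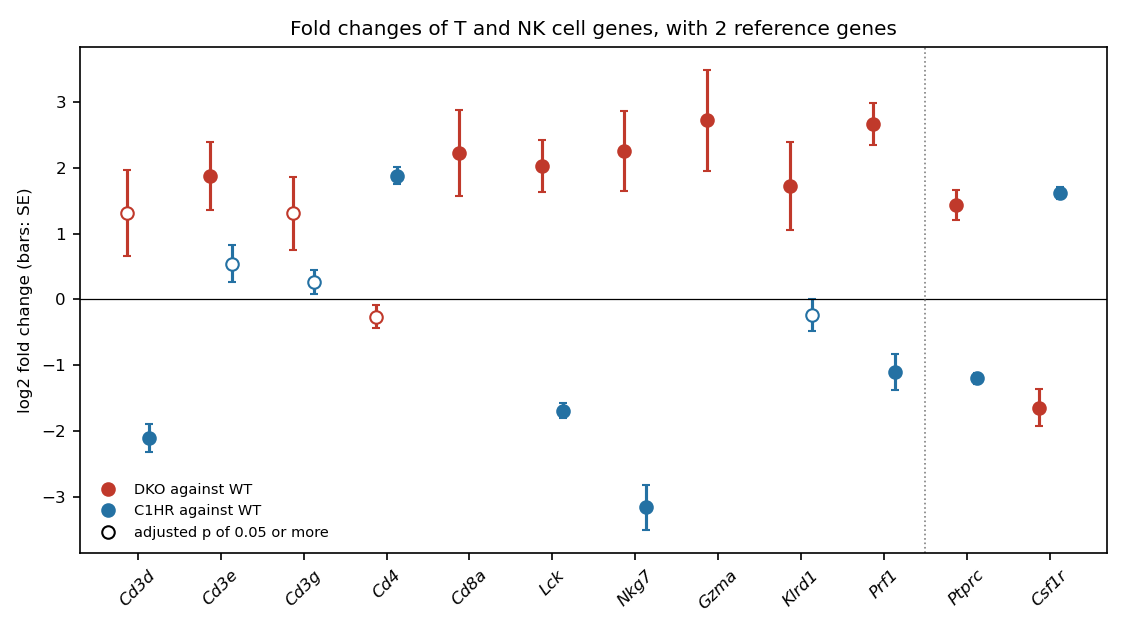
Log2 fold change of each gene in the libraries labelled DKO against those labelled WT (red) and in C1HR against its WT (blue), with bars of 1 SE from edgeR and open points for an adjusted p of 0.05 or more. Cd4 lies below 0 in red and above 0 in blue, opposite to Cd3d, Lck, Nkg7 and Prf1.

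Cd4 (ENSMUSG00000023274, chr6:124814710-124838239, minus strand, mm9) went apart from the other 9 genes. It ranged from 9.68 to 21.1 CPM in the libraries labelled DKO (median 14.04) and from 10.3 to 23.7 CPM in those labelled WT (median 17.8). The groups overlapped, and the log2 fold change of -0.26 (SE 0.18) did not pass (adjusted p = 0.223, edgeR). Without WT 5 and WT 6, whose Cd4 levels were the lowest of their group, it was -0.38 and passed narrowly (adjusted p = 0.0495). In the C1HR experiment Cd4 ranged from 17.3 to 47.3 CPM in C1HR (median 31.6) and from 6.98 to 9.70 CPM in WT (median 8.64). Every C1HR library was above every WT library, as were 27.8% of all genes tested. Cd4 was higher in C1HR by 1.89 on the log2 scale (SE 0.14, adjusted p = 2.08e-12, edgeR). C1HR 8 and C1HR 9 had the lowest Cd4 levels of the C1HR group and the highest Nkg7 levels.

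Within each library, the count of Cd4 relative to each of the other 9 genes was compared between groups. In the libraries labelled DKO, Cd4 was lower relative to all 9, by between -2.24 (to Cd3g) and -4.73 (to Gzma) on the log2 scale. In C1HR, Cd4 was higher relative to all 9, by between 1.28 (to Cd3e) and 5.47 (to Nkg7). All 18 differences passed permutation tests adjusted over 40 ratios, exact in the Sik2/3 experiment and with 100000 resamples in the C1HR experiment, where 2e-05 is the smallest p they can give. The log2 ratio of Cd4 to Cd3e, for example, was 2.99 ± 0.30 in the libraries labelled DKO and 5.80 ± 1.84 in those labelled WT (SD, n = 8 each, exact permutation test, adjusted p = 0.00454). It was 4.38 ± 0.57 in C1HR (SD, n = 12) and 3.10 ± 0.70 in WT (SD, n = 11, permutation test, adjusted p = 0.000518). When WT 5 and WT 6 were left out, Cd4 was lower relative to all 9 by between -3.13 (to Cd3g) and -6.03 (to Gzma), each with an adjusted p of 0.000761 (exact permutation test). The ratio of Cd4 to Cd3e in the 6 libraries left was 6.70 ± 0.89 (SD, n = 6), a difference of -3.71. Without C1HR 8 and C1HR 9, the differences in C1HR lay between 1.20 (to Cd8a) and 6.02 (to Nkg7).

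**Figure D3:**
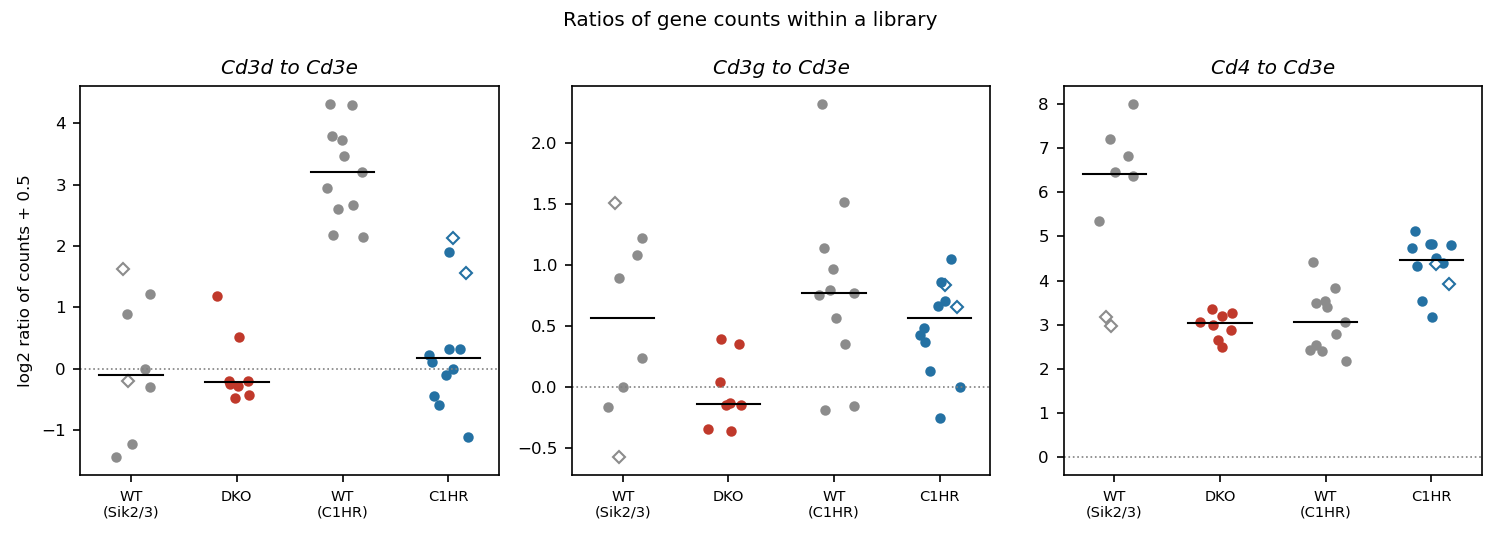
Log2 ratio of counts within each library (0.5 added to both counts) for Cd3d to Cd3e, Cd3g to Cd3e and Cd4 to Cd3e, by group, with 1 point per library, lines at the group medians and open diamonds for the libraries labelled WT 5 and WT 6 and for C1HR 8 and C1HR 9. Cd3d to Cd3e is higher in all 11 WT libraries of the C1HR experiment (lowest 2.145) than in all 12 C1HR libraries (highest 2.135), by a narrow margin. Cd4 to Cd3e is lower in the libraries labelled DKO than in those labelled WT other than WT 5 and WT 6.

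Csf1r, the receptor for macrophage colony-stimulating factor and a marker of monocytes and macrophages, was compared with Cd4 as a myeloid gene. It ranged from 244 to 414 CPM in the libraries labelled DKO, against 260 to 1468 CPM in those labelled WT, and fell by 1.65 on the log2 scale (SE 0.29, adjusted p = 0.000227, edgeR). In the C1HR experiment it ranged from 498 to 800 CPM in C1HR and from 179 to 253 CPM in WT, and rose by 1.62 (SE 0.09, adjusted p = 1.07e-14, edgeR). The log2 ratio of Cd4 to Csf1r was -4.47 ± 0.32 in C1HR (SD, n = 12) and -4.70 ± 0.24 in WT (SD, n = 11), a difference of 0.23 (SE 0.12) that did not pass (permutation test, adjusted p = 0.0805). Without C1HR 8 and C1HR 9 the difference was 0.33 (adjusted p = 0.00585). In the Sik2/3 experiment Cd4 was higher relative to Csf1r in the libraries labelled DKO, by 1.21 (SE 0.32, exact permutation test, adjusted p = 0.00506). Of 15 myeloid genes, 11 were called higher and 3 lower in C1HR, and 4 were called in each direction in the libraries labelled DKO. Mertk, a receptor by which macrophages take up dying cells, was higher in C1HR by 1.45 (SE 0.08, adjusted p = 1.19e-14, edgeR). Itgam, an integrin chain of granulocytes and macrophages, fell by 1.58 there (SE 0.13, adjusted p = 1.98e-11). The part of myeloid cells in the level of Cd4 was not tested.

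Across the 10 C1HR libraries other than C1HR 8 and C1HR 9, log2 CPM of Cd4 and Csf1r had a Pearson r of 0.663 (permutation p = 0.00838, adjusted p = 0.0503 over 12 relations). Spearman's rho was 0.855 (permutation p = 0.003, adjusted p = 0.0274). Without the 2 libraries farthest from the median of Csf1r, r was 0.537 and did not pass (permutation p = 0.112, adjusted p = 0.429). With fewer libraries, that loss does not show whether the relation rests on those left out. With all 12 C1HR libraries, r was 0.691 (permutation p = 0.0166, adjusted p = 0.0664) and rho was 0.86 (permutation p = 0.00078, adjusted p = 0.00468). Leaving out the 2 farthest of the 12 gave r = 0.637 (permutation p = 0.0642, adjusted p = 0.154). For the same pair of genes, r was -0.494 in the libraries labelled DKO (n = 8, exact permutation p = 0.206). It was -0.813 in the 6 libraries labelled WT other than WT 5 and WT 6 (exact permutation p = 0.0556), and -0.140 in the WT group of the C1HR experiment (n = 11, permutation p = 0.701).

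The r of Cd4 with Cd3e in those 10 C1HR libraries was 0.350 (permutation p = 0.307), and 0.822 without the 2 farthest from the median of Cd3e (permutation p = 0.0185, adjusted p = 0.111). It was 0.743 in the libraries labelled DKO (n = 8, exact permutation p = 0.0353, adjusted p = 0.106), 0.474 in the WT group of the C1HR experiment (permutation p = 0.151) and -0.122 in the 6 libraries labelled WT (exact permutation p = 0.85). These correlations do not set Csf1r apart from Cd3e in relation to Cd4.

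After each gene was centred on its group means, the 3 of 13821 genes most like Cd4 over the 39 libraries were Lgals3bp (r = 0.766), Fkbp15 (r = 0.757) and Cx3cr1, a chemokine receptor of monocytes and macrophages (r = 0.739). On the same measure Cd4 had r = 0.344 with Csf1r, r = 0.396 with the bone collagen gene Col1a1, r = 0.024 with Cd3e and r = -0.545 with Cd3d. It had r = -0.449 with the granulocyte gene Ltf and r = -0.578 with the globin gene Hba-a2. Over the 35 libraries other than WT 5, WT 6, C1HR 8 and C1HR 9, the 3 genes most like Cd4 were Pld4 (r = 0.833), Ifnar2 (r = 0.764) and Oasl2 (r = 0.761), and Cx3cr1 had r = 0.692. Cd4 then had r = -0.133 with Csf1r, r = 0.066 with Col1a1, r = 0.360 with Cd3e and r = -0.150 with Cd3d, so its order of likeness depends on those 4 libraries. The 3 genes most like Cd3e were Il2rb, a chain of the interleukin receptors of T and NK cells (r = 0.828), Cd27, a costimulatory receptor of lymphocytes (r = 0.821), and Cd8b1, the partner chain of CD8 alpha (r = 0.814). Over the 35 libraries Il2rb (r = 0.704) and Cd27 (r = 0.687) were again first and second, and Cd8b1 had r = 0.613. Those most like Cd3d were Hsd11b1 (r = 0.935), Rasgrp2 (r = 0.933) and Plac8 (r = 0.926). Cd3d had r = 0.552 with Cd3e, r = 0.854 with Lck, r = 0.842 with Nkg7 and r = 0.846 with Hba-a2. Over the 35 libraries these were 0.226 with Cd3e, 0.592 with Lck, 0.573 with Nkg7 and 0.543 with Hba-a2, and the first 3 were 1100001G20Rik (r = 0.869), Hsd11b1 (r = 0.840) and Camp (r = 0.839), a granulocyte gene. Nkg7 was most like Muc13 (r = 0.955) and had r = 0.825 with Ltf and r = 0.828 with Hba-a2. It had r = 0.832 with Lck, r = 0.688 with Klrd1 and r = 0.397 with Prf1. Over the 35 libraries Nkg7 had 0.684 with Ltf, 0.388 with Hba-a2, 0.689 with Lck, 0.213 with Klrd1 and 0.302 with Prf1. All these values share libraries and depth and are descriptions without a test.

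Ptprc encodes CD45, found on nearly all blood cells other than mature red cells, and ratios to it were used as a second reference that needs no scaling between libraries. Ptprc had a log2 fold change of 1.44 in the libraries labelled DKO (SE 0.23, adjusted p = 0.000138, edgeR) and fell by 1.20 in C1HR (SE 0.09, adjusted p = 2.91e-12). Relative to Ptprc, 7 members were higher in the libraries labelled DKO, from 0.97 for Lck to 3.05 for Gzma on the log2 scale. Cd4 was lower, by -1.68 (SE 0.28, exact permutation test, adjusted p = 0.000691). Cd3d (1.04, adjusted p = 0.0973) and Cd3g (0.56, adjusted p = 0.167) did not pass the exact permutation test with all libraries, and passed without WT 5 and WT 6. Without those libraries 9 members were higher relative to Ptprc, from 1.07 for Cd3g to 3.98 for Gzma, and Cd4 was lower by -2.06 (exact permutation test, adjusted p = 0.000761 each). In C1HR, 3 members were lower relative to Ptprc: Nkg7 by -2.42 (SE 0.30), Cd3d by -1.08 (SE 0.18) and Lck by -0.51 (SE 0.09). Another 5 were higher: Cd4 by 3.05, Cd3e by 1.77, Cd8a by 1.65, Cd3g by 1.46 and Klrd1 by 0.94. Gzma (-0.10, adjusted p = 0.748) and Prf1 (0.02, adjusted p = 0.945) did not pass the permutation test. Without C1HR 8 and C1HR 9, Nkg7 was lower relative to Ptprc by -2.74, Cd3d by -1.20 and Lck by -0.52. The 5 higher members then lay between 0.905 (Klrd1) and 3.27 (Cd4), with Cd8a at 2.07.

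**Figure D4:**
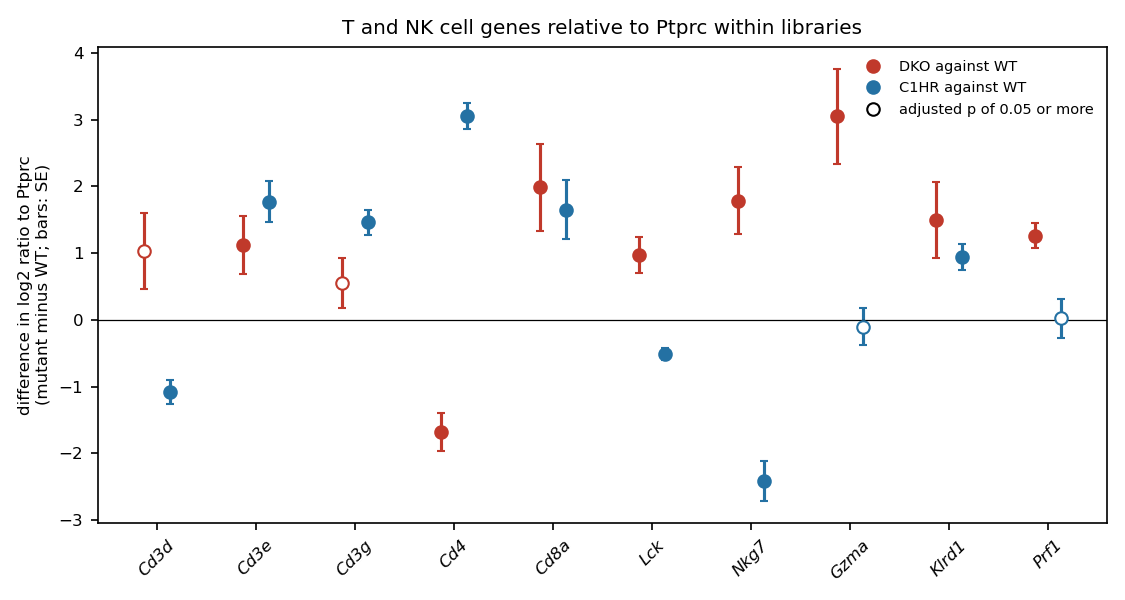
Difference between mutant and WT in the log2 ratio of each gene to Ptprc within libraries, for the Sik2/3 experiment (red, libraries labelled DKO minus labelled WT) and the C1HR experiment (blue), with bars of 1 SE and open points for an adjusted p of 0.05 or more. In blue, Cd3d, Lck and Nkg7 lie below 0 while Cd3e, Cd3g, Cd4, Cd8a and Klrd1 lie above it.

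The effects of the 2 experiments were compared in 1 edgeR fit of all 39 libraries. The 8 members that passed the filter on low counts in both experiments differed, where 80.2% of 15387 genes tested did. Over all genes the difference was higher for 42% and lower for 38.1%. Relative to its effect in the libraries labelled DKO, the effect in C1HR was higher for Cd4 (2.09, SE 0.23, adjusted p = 8.34e-11, edgeR) and lower for the other 7, among them Nkg7 (-5.50, adjusted p = 3.46e-09), Prf1 (-3.83, adjusted p = 1.26e-10) and Lck (-3.78, adjusted p = 2.07e-12). Gzma (-4.07, adjusted p = 5.86e-06) and Cd8a (-1.89) had too few counts in the C1HR experiment and entered this fit through the libraries labelled DKO, where they are high, so they are not counted here. That of Cd3g was the smallest of the 7 (-1.10, adjusted p = 0.0463) and did not pass without C1HR 8 and C1HR 9 (-1.04, adjusted p = 0.0702), and when WT 5 and WT 6 were left out it was -2.57 (adjusted p = 4.72e-08), while Nkg7 was at -7.21 and Cd3d at -5.67. The 2 experiments share no library but differ in depth and, per the design text, in flushing of the marrow, which cannot be told apart from the genotypes in this contrast.

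Other genes of the same cells were counted in 2 lists that hold none of the 10. Of 18 other T cell genes tested, 12 were called higher in the libraries labelled DKO and 3 were called lower, with a median log2 fold change of 0.94. Without WT 5 and WT 6 these counts were 13 and 3 of 19, with a median of 1.59. Skap1, an adaptor of T cell receptor signalling, was higher by 1.98 (SE 0.37, adjusted p = 0.000428, edgeR). Cd5, a surface regulator of that signalling, fell by 1.68 (SE 0.34, adjusted p = 0.000734), and Tcf7, a transcription factor of the Wnt pathway and of T cells, fell by 1.08 (SE 0.25, adjusted p = 0.00171). In C1HR, 4 of 16 were called higher and 5 lower, with a median of 0.03, and of -0.09 without C1HR 8 and C1HR 9. Tcf7 was higher there by 1.72 (SE 0.12, adjusted p = 1.55e-12) and Cd5 by 1.20 (SE 0.10, adjusted p = 3.48e-11), while Lat, an adaptor that LCK signalling reaches, fell by 1.37 (SE 0.09, adjusted p = 7.12e-13). Cd5 and Tcf7 thus moved opposite to Lck in both comparisons.

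Of 20 other NK and cytotoxic genes tested, 14 were called higher in the libraries labelled DKO and 1 was called lower, with a median log2 fold change of 1.89. Without WT 5 and WT 6 these counts were 19 and 1 of 21, with a median of 3.30, and without WT 5 alone they were 16 and 1 of 20, with a median of 2.65. Tbx21, the transcription factor T-bet of NK and effector T cells, was higher by 2.97 (SE 0.45, adjusted p = 9.34e-05, edgeR), and Il2rb by 2.45 (SE 0.41, adjusted p = 0.000192). The summed level of the list was 84.8 to 151 CPM in the libraries labelled DKO and 35.3 to 78.8 CPM in those labelled WT, without overlap. In C1HR, 2 of 12 were called higher and 6 lower, with a median of -0.57, and of -0.65 without C1HR 8 and C1HR 9. Cst7, a cystatin of cytotoxic granules that other blood cells also make, fell by 2.57 there (SE 0.23, adjusted p = 1.53e-10), and Ctsw, a cathepsin of NK and cytotoxic T cells, was higher by 1.81 (SE 0.15, adjusted p = 3.20e-11). Tbx21 (-0.19, adjusted p = 0.429) and Il2rb (-0.30, adjusted p = 0.17) did not pass. Txk is in both lists. The lists were chosen with earlier results of these data known.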

How the data were processed

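The deposited files hold whole-number counts per gene, which the authors made with STAR on the mm9 genome and HTSeq 0.6.0, per the submitters' design text, and without strand, per the labels' file names. The design text calls them CPM, but the totals are unequal, and they were treated as raw counts. It also counts 6 WT libraries for the Sik2/3 experiment where the labels give 8, and all 8 were used. Among all reads, the median share not mapped uniquely was 48.7% in the WT libraries of the C1HR experiment and 26.8% to 30.8% in the other groups. GENCODE vM1, whose assembly NCBIM37 is the same as mm9, gave gene names and coordinates.

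Each mutant group was compared with its own WT group by edgeR 4.0.16's quasi-likelihood test in R 4.3.3 (filterByExpr with a minimum count of 10 and total of 15, TMM scaling, robust estimation). P-values were adjusted by Benjamini-Hochberg over all genes tested, and a call is an adjusted p under 0.05. Effects were compared between experiments by a contrast over all 4 groups. Within-library ratios were log2 with 0.5 added to both counts and were compared by two-sided permutation tests with scipy 1.17.1. Alternatives were DESeq2 1.42.0, limma 3.58.1 voom with quality weights, other scalings and filters, a replicate block, and leaving out libraries. The tests were also run on simulated data. Total-count scaling and the ratios among CD3 genes were chosen after the data were seen.

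The 10 members and all lists were chosen with earlier results of these data known. All members are named, with the 2 genes of smallest p in each other list and the 3 genes most alike to Cd4 and Cd3e. Likeness for Cd3d and Nkg7, likeness and lists without the libraries that stand apart, and the dendritic sum without Tcf4 were added after values were seen. Ebf1 and Runx2 each matched 2 identifiers and were left out of their lists. The labels do not say whether libraries of a group came from separate mice, so p-values measure the spread between these libraries. Reads were not collapsed by molecular identifiers and may be PCR copies, so the limit given for a level at 0 (3 counts) covers counting error only.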

Additional observations from a re-analysis of the deposited data

Results flagged for a closer look

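The library labelled WT 5 lay far above the other 7 of its group for 4 of the 10 genes, by Dixon's test at the 95% level. Its level was 3.496 CPM for Cd3d, where the next library had 1.529 CPM, and 3.227 CPM for Cd3g, where the next had 1.169 CPM. It was 4.303 CPM for Gzma, where the next had 1.304 CPM, and 5.378 CPM for Klrd1, where the next had 2.113 CPM. In all 4 cases the next library was WT 6. The 20 sets of levels tested in this way were those of the 10 genes in each group of the Sik2/3 experiment, and these 4 were far apart. Chance gives about 1 in 20 for independent sets, but all 4 came from WT 5 and the sets share libraries. The number of sets far apart therefore cannot be held against that rate. WT 5 and WT 6 also had the highest summed granulocyte levels of their group, and their part in these values was not tested.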

How the results depend on the processing

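No called fold change, count or ratio reversed under the alternatives run for it. Leaving out 1 library at a time was run for the comparisons of each mutant with its WT, and not for ratios, correlations or the difference of the effects. Among correlations that did not pass, that of Cd4 with Csf1r in the libraries labelled WT went from 0.572 to -0.813 without WT 5 and WT 6, and that of Cd8a with Cd3e in C1HR changed sign as given above. Over single genes, ratios and correlations, 16 values lost a call and 18 gained one, with 1 more of each under settings chosen after seeing the data, and the rest kept theirs. The libraries that most move the values in the Sik2/3 experiment are those labelled WT 5 and WT 6. Without them, the members called lower there went from 0 to 1 (Cd4), and those called higher from 7 to 9. Over all genes, those with an unadjusted p under 0.05 (edgeR) went from 9292 of 15479 to 10552 of 15660. Leaving out 1 library at a time gave 6 to 9 members called higher in the libraries labelled DKO and 4 called lower in C1HR each time. Over all genes, these fits called 3410 to 4204 higher in the libraries labelled DKO and 5578 to 5797 lower in C1HR. Members called higher in C1HR ranged from 1 to 2, beside 6017 to 6129 of all genes. The second member was Cd3e without C1HR 8 (0.61, adjusted p = 0.0481, edgeR) or without WT 8 of that experiment (0.66, adjusted p = 0.0364). Limma voom with quality weights gave 3 members called higher in C1HR. Of all 13976 genes, 12296 had an unadjusted p under 0.05 in either direction with limma voom there, against 11873 with edgeR. With scaling by total counts, chosen after seeing the data, 2697 genes were called lower in the libraries labelled DKO against 4788 with TMM. That scaling moved the median log2 fold change of all genes from -0.09 to 0.12 there and from 0.05 to -0.35 in C1HR, and Klrd1 then passed as lower in C1HR (-0.63, adjusted p = 0.024, edgeR). The cause of these shifts was not tested. Cd3d passed without WT 5 alone (2.38, adjusted p = 0.00137), and Cd3g without WT 5 alone (2.22, adjusted p = 0.000308) and with DESeq2 (1.37, adjusted p = 0.0305). With no filter Klrd1 lost its call in the libraries labelled DKO (adjusted p = 0.0654, edgeR), over 27997 genes tested. No clear pairing of the libraries by the replicate numbers of the labels was seen, though these values cannot show that there is none. Deviations of same-numbered libraries correlated between -0.256 and 0.341, and 2 of 8 and 2 of 11 pairs were best matched to their own number. With the number as a replicate block, 9 members were called higher in the libraries labelled DKO, Cd3d (2.28, adjusted p = 0.031, edgeR) and Cd3g (1.90, adjusted p = 0.0108) being added. Over all genes, 3803 were called higher with the block, against 3726 without it. In the C1HR experiment Cd8a had 1 to 19 and Gzma 1 to 24 counts per library, and in the 6 libraries labelled WT other than WT 5 and WT 6 the CD3 genes had 1 to 9 and Prf1 3 to 8 counts.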

Other observations

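Dendritic cells, some of which make CD4 in mice, were followed by 10 genes. Of these, 6 were called higher in the libraries labelled DKO and 1 was called lower, with 3 higher and 6 lower in C1HR. Irf8, a transcription factor of dendritic cells and monocytes, was higher in the libraries labelled DKO by 1.99 on the log2 scale (SE 0.32, adjusted p = 0.000125, edgeR) and fell by 1.49 in C1HR (SE 0.11, adjusted p = 1.88e-12). Tcf4, a transcription factor of plasmacytoid dendritic cells that other cells also make, was higher in C1HR by 1.25 (SE 0.07, adjusted p = 1.15e-14). Bst2, a surface protein of plasmacytoid dendritic cells, was higher in the libraries labelled DKO by 1.09 (SE 0.18, adjusted p = 0.000187, edgeR). The summed level of the 10 genes was 437 to 547 CPM in the libraries labelled DKO and 344 to 474 CPM in those labelled WT. It was 322 to 410 CPM in C1HR and 273 to 320 CPM in its WT, where Tcf4 alone gave 225 to 307 CPM and 98.1 to 132 CPM. Without Tcf4 the direction in that experiment turned, with 84.5 to 117 CPM in C1HR and 152 to 196 CPM in its WT. In the Sik2/3 experiment the 9 genes summed to 184 to 362 CPM in the libraries labelled DKO and 60.4 to 178 CPM in those labelled WT.

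Among B lineage genes, Blnk (1.61) and Cd22 (1.82) were higher in the libraries labelled DKO, and Fcrla (-2.76) and Cd79b (-2.34) were lower in C1HR on the log2 scale. Among granulocyte genes, Ltf (2.64) and Ngp (2.45) were higher in the libraries labelled DKO, and Mmp8 (-3.06) and Retnlg (-2.99) were lower in C1HR. Among erythroid genes, Spnb1 (1.49) and Epor (2.42) were higher in the libraries labelled DKO, and Hba-a2 (-3.43) and Epor (-2.93) were lower in C1HR. Of 9 bone genes, 9 were called higher in C1HR, Sp7 (1.81) and Col1a2 (2.07) with the smallest p, and 2 were called lower in the libraries labelled DKO, Ibsp (-1.09) and Alpl (-0.65). The muscle genes Ckm and Myh4 did not pass in either comparison, with adjusted p from 0.131 to 0.507 (edgeR).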
